A study of Mus musculus with 6 samples.

Results

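Mitochondrial ribosomal proteins were followed as the 78 mouse genes whose symbol is Mrpl or Mrps followed by a digit, pseudogenes left out: 49 named for the large subunit (Mrpl) and 29 for the small subunit (Mrps). Of these, 77 stood among the 29370 genes of the gene matrix, and all 77 passed the filter on low counts, so no member was lost to a low level. Mrpl33 had no entry in the matrix and was read from the transcript tables alone. RNA was sequenced from CD8+ T cells of wild-type (WT) mice, taken from pancreas, spleen and lymph nodes and held in T cell medium. There were 3 control libraries and 3 libraries of cells given 100 µM palmitate, a saturated fatty acid, and the comparison was made at 48 h. What the control medium held, the age and sex of the mice and whether each library came from its own mouse or culture are not given in the labels. The protocol text that names palmitate stands on the control samples too, so the groups rest on the treatment label and the title. Since the source of each library is not stated, the p-values rest on how much the libraries vary within a group, and that variation may be technical.

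Mitochondria carry their own ribosome, which translates the small set of membrane proteins of the respiratory chain and ATP synthase that are encoded in mitochondrial DNA. All its proteins are encoded in the nucleus, made in the cytosol and imported, then assembled on ribosomal RNAs transcribed inside the mitochondrion. The large subunit holds the peptidyl transferase centre and the tunnel through which the new chain leaves, and the small subunit binds the mRNA and decodes it. Some of the proteins have bacterial homologues and others are particular to mitochondria. In T cells, mitochondrial translation is known to grow with activation.

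The libraries held 16724588 to 29362276 estimated counts, the fewest in palmitate 3. The label of CD8+ T cells was set against marker genes: the CD8 T cell list summed to 1070 to 1300 CPM (counts scaled to a common library total) in control and 1560 to 1700 in palmitate, with 6 of its 7 tested genes higher in palmitate. CD4 T cell markers summed to at most 1.38 CPM and myeloid markers to at most 2.71 in any library. B cell and plasma cell markers summed to 179 to 244 in control and 276 to 309 in palmitate (2 of 10 tested higher, 4 by DESeq2 and 6 with the replicate block, all 10 with a positive fold change and a median of 1.46 on the log2 scale). Markers of fibroblasts and endothelium summed to 35.6 to 42.1 and 46.7 to 63.8 (1 higher), and erythroid markers to 1.09 to 2.03 and 4.41 to 6.64 (1 higher). NK cell markers, some of them shared with CD8 T cells, summed to 167 to 185 and 143 to 162. Pancreas markers summed to at most 2.62, with Ins1 and Ins2 at 0. The part of these other markers in the results below was not tested.

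Mitochondrial ribosomal protein genes were more often lower than higher after palmitate. By the quasi-likelihood test of edgeR, Benjamini-Hochberg adjusted over all genes, 26 of the 77 tested members (33.8%) fell and 3 (3.9%) rose, while 48 did not pass. Over all 12068 genes tested, 11.7% fell and 11.1% rose. The median log2 fold change, palmitate over control, was -0.18 over the members (quartiles -0.32 and -0.02) and 0.02 over all genes, and 59 of the 77 members had a negative value, against 5781 of the 12068 genes. In 38 members every palmitate library was below every control library and in 6 every one was above. Over all genes these shares were 21.2% and 21.6%. In whole-cell RNA of this kind, fewer cells of a type and less RNA per cell cannot be told apart.

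The calls depended on single libraries. The number of members called lower was 12 without control 2, 5 without control 3, 10 without palmitate 1 and 10 without palmitate 3, against 26 with all libraries. Of the 29 calls in both directions, 7 held whichever library was left out, and the other 22 were each lost without control 3. Over all genes the number called in either direction moved as well, from 2759 to 1353, 690, 1443 and 1304. Without control 1 it was 3433 and without palmitate 2 it was 1651, with 26 and 23 members lower. The median log2 fold change over the members stayed between -0.22 and -0.16 in the 6 fits that left out 1 library each.

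The counts were also taken under other fits. With the replicate number as a block, 31 members were called lower and 4 higher (all genes 16.6% and 16.5%), and all 29 calls of the fit without the block were among them. DESeq2 called 29 lower and 3 higher (all genes 14.5% and 12.0%), and limma-voom 25 and 3 (11.1% and 10.9%). Reads summed over transcripts gave 30 lower and 3 higher (all genes 13.5% and 12.2%), and with an offset for transcript length 25 and 3 (10.4% and 9.25%). With upper-quartile scaling in place of TMM, 18 members were called lower and 3 higher. That scaling moved the all-gene split from 1416 lower and 1343 higher to 1052 lower (8.72%) and 1651 higher (13.7%).

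Each palmitate library showed the shift. Relative to the mean of the control libraries, the median member stood at -0.23, -0.16 and -0.16 (log2) in palmitate 1, 2 and 3, and at 0.00, -0.04 and 0.03 in the control libraries. In palmitate 1, 2 and 3 in turn, 63, 60 and 57 of the 77 members were below their control mean. In control 1, 2 and 3 these numbers were 35, 56 and 21. Control 2 was thus close to palmitate 3 by this count, though not by the median.

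**Figure D1:**
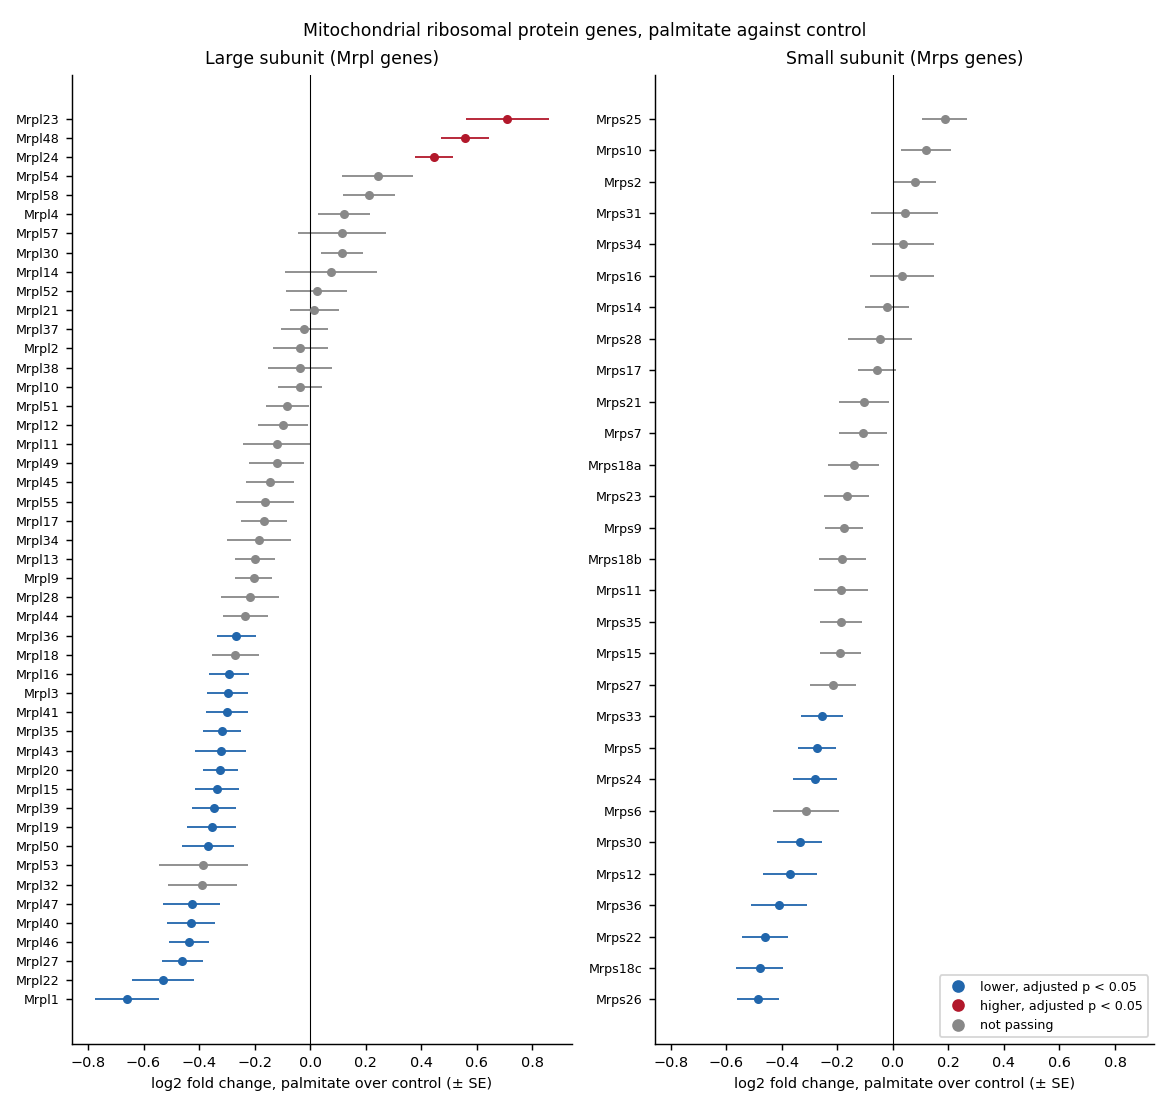
Log2 fold change (palmitate over control) of each mitochondrial ribosomal protein gene, large and small subunit, with bars of 1 standard error from edgeR's quasi-likelihood fit (3 libraries per group). Members called lower or higher are coloured. Mrpl42, of which the matrix held nearly no reads, and Mrpl33, which is not in the matrix, are left out. Most points lie below 0, and 3 large subunit members are called above it.

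The large and the small subunit had nearly the same median. Of the 48 large subunit members tested, 17 (35.4%) fell and 3 (6.2%) rose, with a median log2 fold change of -0.19. Of the 29 small subunit members, 9 (31.0%) fell and 0 rose, with a median of -0.18; at an unadjusted p under 0.05, and by DESeq2 and limma-voom at an adjusted 0.05, the number higher was also 0. All 3 rises were therefore in the large subunit, but whether the subunits differ was not tested. With upper-quartile scaling 13 large (27.1%) and 5 small subunit members (17.2%) were called lower, with medians of -0.13 and -0.12. With length offsets these numbers were 18 of 49 (36.7%) and 7 of 29 (24.1%), with medians of -0.23 and -0.18. Without control 2, control 3, palmitate 1 and palmitate 3 in turn, 8, 3, 7 and 7 large subunit members and 4, 2, 3 and 3 small subunit members were called lower. Groups did not overlap in 23 of the 48 large subunit members with palmitate lower and in 4 with palmitate higher. In the small subunit these numbers were 15 and 2 of 29. Over all genes the shares were 21.2% lower and 21.6% higher.

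The same held for levels in TPM, a unit that takes transcript length into account. Large subunit genes together made up 4930, 4765 and 5000 TPM in control 1 to 3, and 4389, 4521 and 4353 in palmitate 1 to 3. Small subunit genes made up 2823, 2737 and 2799 TPM in control, and 2447, 2510 and 2549 in palmitate. In both sums every palmitate library lay below every control library. TPM adds up to a fixed total in each library, so higher values in some genes lower the others. Cytosolic ribosomal proteins together had a mean of 238700 TPM in control and 263300 in palmitate (ratio 1.103). The part of this in the lower sums was not tested. The ratio of palmitate to control means was 0.903 for the large subunit and 0.898 for the small. Within a library, the large subunit sum was 1.76 ± 0.025 times the small subunit sum in control and 1.77 ± 0.052 times in palmitate (SD, n = 3 libraries each), and these ratios overlapped between groups.

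By origin, proteins with bacterial homologues and proteins particular to mitochondria both held genes that fell. In the large subunit, 11 of 28 genes with bacterial homologues fell and 2 rose (median -0.21), and 6 of 19 genes particular to mitochondria fell and 1 rose (median -0.12). In the small subunit, 4 of 16 genes with bacterial homologues fell (median -0.14), and 3 of 10 particular to mitochondria (median -0.18). Over all genes tested, 11.7% fell and 11.1% rose. No test compared these classes. Mrps30 and Mrps18a, named for the small subunit, are placed in the large subunit by structures of the mammalian ribosome, and Mrps36 is known as a subunit of the oxoglutarate dehydrogenase complex. Of these, Mrps30 and Mrps36 are among the 9 genes with Mrps symbols that fell.

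Several of the large subunit genes with the smallest adjusted p encode proteins of the core. Mrpl1, whose protein forms the stalk at the site where tRNAs leave, had 124.6, 137.6 and 133.8 CPM in control 1 to 3 and 68.2, 93.2 and 89.2 in palmitate 1 to 3. The highest palmitate library was below the lowest control library, and palmitate 1 was the lowest of all. Its mean fell by 36.7%, from 132.0 ± 6.65 to 83.6 ± 13.4 CPM (SD, n = 3; log2 fold change -0.66 ± 0.12 SE, adjusted p = 0.00869). Of the 26 members that fell, Mrpl1 fell by the most. Mrpl27, whose protein lies close to the peptidyl transferase centre, had 63.9, 65.0 and 67.3 CPM in control and 45.0, 49.4 and 48.3 in palmitate. These groups were well apart, and the log2 fold change was -0.46 ± 0.07 (adjusted p = 0.00632). Mrpl22, whose protein lines the exit tunnel, had 37.7, 40.3 and 40.0 CPM in control and 23.0, 28.8 and 30.0 in palmitate. Its groups did not overlap either (log2 fold change -0.53 ± 0.11, adjusted p = 0.0149). Its call was lost without control 3 (adjusted p = 0.0635).

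Genes for the central protuberance, the crown of the large subunit, were among those that fell. Mrpl46 had 62.7, 57.6 and 61.6 CPM in control and 44.6, 45.2 and 44.6 in palmitate, a log2 fold change of -0.44 ± 0.07 (adjusted p = 0.00709). The palmitate libraries were nearly equal and all were below the controls. Mrpl40 had 87.8, 96.9 and 95.2 CPM in control and 62.7, 75.4 and 69.6 in palmitate, again without overlap (log2 fold change -0.43 ± 0.09, adjusted p = 0.013). The Mrpl40 call was lost without control 3.

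Mrpl20, a homologue of a bacterial protein that binds ribosomal RNA early in assembly, had 122.7, 122.2 and 131.2 CPM in control and 98.9, 100.5 and 101.2 in palmitate. All palmitate libraries were below all controls and close to each other (log2 fold change -0.32 ± 0.06, adjusted p = 0.0116); this call too was lost without control 3. Mrpl35 had 113.9, 111.0 and 115.9 CPM in control and 90.9, 96.2 and 86.0 in palmitate (-0.32 ± 0.07, adjusted p = 0.0158), its call was lost without control 3 and without palmitate 3, and the matrix held 88.1% of its transcript reads. Mrpl39, which is particular to mitochondria, had 76.0, 78.7 and 80.1 CPM in control and 57.0, 66.8 and 61.0 in palmitate (-0.35 ± 0.08, adjusted p = 0.0204). In both the groups were apart.

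Mrpl15 had the highest CPM of the large subunit genes that fell, with 156.9, 168.8 and 168.5 in control and 121.0, 142.9 and 127.8 in palmitate (log2 fold change -0.34 ± 0.08, adjusted p = 0.0223). Mrpl47, whose protein sits at the tunnel exit, had 75.8, 80.4 and 87.3 CPM in control and 53.3, 67.8 and 60.02 in palmitate (-0.43 ± 0.10, adjusted p = 0.0228). Neither pair of groups overlapped, and the calls of Mrpl39, Mrpl15 and Mrpl47 each held in 2 of the 6 fits that left out 1 library, being lost without control 2, control 3, palmitate 1 and palmitate 3. The other large subunit genes that fell were Mrpl3, Mrpl16, Mrpl19, Mrpl36, Mrpl41, Mrpl43 and Mrpl50, with log2 fold changes of -0.37 to -0.27 and adjusted p of 0.0252 to 0.0388. None of these 7 kept its call in more than 3 of the 6 fits. Mrpl16, Mrpl36, Mrpl41 and Mrpl43 were not called with upper-quartile scaling (adjusted p = 0.057, 0.066, 0.0605 and 0.0806).

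Against this direction, Mrpl48, Mrpl24 and Mrpl23 rose. Mrpl48, another protein of the central protuberance, had 42.6, 38.05 and 43.3 CPM in control and 56.9, 61.9 and 63.8 in palmitate. Every palmitate library was above every control library, and the mean moved from 41.3 ± 2.86 to 60.9 ± 3.59 CPM, 47.2% higher (log2 fold change 0.56 ± 0.09, adjusted p = 0.00608). So Mrpl46 and Mrpl40 fell while Mrpl48, of the same part of the ribosome, rose. Mrpl24, whose protein lies at the tunnel exit, had 82.8, 82.4 and 85.2 CPM in control and 106.0, 118.0 and 117.3 in palmitate. The groups were apart and the mean was 36.2% higher (0.45 ± 0.07, adjusted p = 0.00612). Both calls held in each of the 6 fits that left out 1 library. Both genes share exonic bases with another gene in the annotation, Mrpl48 with Rab6a over 708 bases and Mrpl24 with Rrnad1 over 594 bases on the opposite strand, and no label or note gives the strand setting of the counting. How far reads of those neighbours enter the 2 rises was not tested.

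The third rise, Mrpl23, another tunnel exit protein, is less certain. It had 3.96, 4.61 and 4.54 CPM in control and 6.78, 7.51 and 7.16 in palmitate (log2 fold change 0.71 ± 0.15, adjusted p = 0.0151), without overlap. The matrix held 51.5% of its transcript reads, and the call was lost without control 3 and without palmitate 3. Its pseudogene Mrpl23-ps1 was counted at 45.6, 40.5 and 40.7 CPM in control and 60.1, 63.3 and 61.5 in palmitate, 45.9% higher (adjusted p = 0.00529). Salmon divides reads that fit both, so the gene and its near-identical copy may not be separable in these counts.

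**Figure D2:**
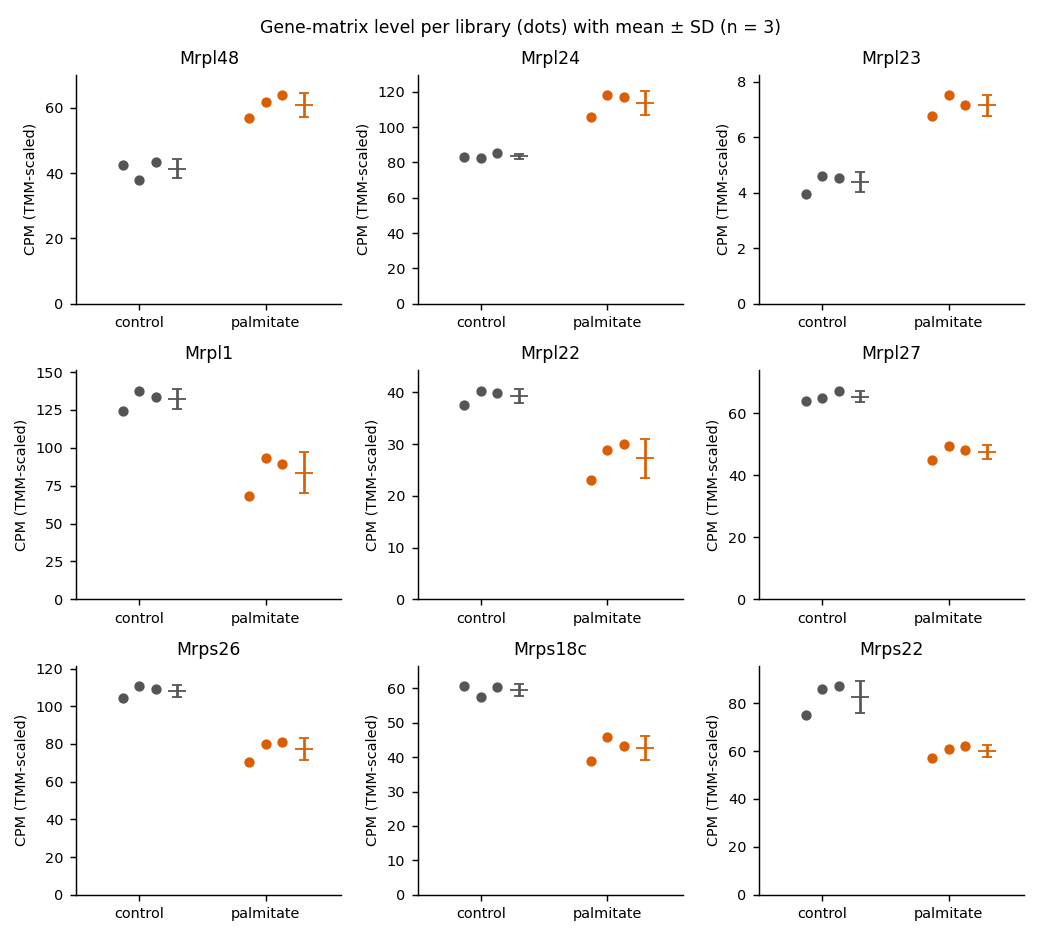
CPM (on TMM-scaled library sizes) in each of the 3 control and 3 palmitate libraries for 9 called members. Each point is 1 library, and the bars beside them are the mean ± SD of the group (n = 3). In every panel the control and palmitate points do not overlap, and Mrpl48, Mrpl24 and Mrpl23 are the ones with palmitate above control.

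In the small subunit, Mrps26, Mrps18c and Mrps22 had the smallest adjusted p. Mrps22, a protein particular to the mitochondrial ribosome, had 75.05, 85.8 and 87.0 CPM in control and 57.0, 61.0 and 62.1 in palmitate. The groups were apart, with a mean of 82.6 ± 6.57 in control and 60.04 ± 2.66 in palmitate, and it fell by 27.3% (log2 fold change -0.46 ± 0.08, adjusted p = 0.009). Its call held in 5 of the 6 fits that left out 1 library and was lost without control 3 (adjusted p = 0.0528). Mrps5, a homologue of a bacterial protein beside the mRNA entry channel, had 84.8, 82.2 and 82.3 CPM in control and 65.5, 70.5 and 70.3 in palmitate (-0.27 ± 0.07, adjusted p = 0.0244). Mrps30 had 97.7, 112.4 and 111.7 CPM in control and 81.6, 89.8 and 83.6 in palmitate (-0.34 ± 0.08, adjusted p = 0.0224). Mrps36 had 59.8, 56.6 and 66.2 in control and 41.3, 50.4 and 45.8 in palmitate (-0.41 ± 0.10, adjusted p = 0.0238). In these 3 genes too every palmitate library was below every control library, while their calls held in 1 to 3 of the 6 fits and were lost without control 3, palmitate 1 and palmitate 3. The other genes that fell were Mrps12, Mrps24 and Mrps33, with log2 fold changes of -0.37, -0.28 and -0.26 and adjusted p of 0.0298, 0.0368 and 0.047. Their calls held in 2, 1 and 2 of the 6 fits that left out 1 library. With upper-quartile scaling none of these 3 was called (adjusted p = 0.0527, 0.0812 and 0.0956), and neither was Mrps5 (0.0552). Mrps33 was not called by limma-voom either (0.0524).

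For Mrps26 and Mrps18c the gene-level fall went with a change in which transcript was read. Mrps26 had 104.6, 110.5 and 109.1 CPM in control and 70.3, 80.2 and 80.8 in palmitate (-0.49 ± 0.08, adjusted p = 0.00622). Mrps18c had 60.6, 57.4 and 60.4 CPM in control and 38.9, 45.8 and 43.2 in palmitate (-0.48 ± 0.09, adjusted p = 0.00859). Neither pair of groups overlapped, and both calls held in all 6 fits that left out 1 library. Summing all transcript reads gave log2 fold changes of -0.50 (adjusted p = 0.00331) for Mrps26 and -0.29 (adjusted p = 0.0258) for Mrps18c, both still called. When transcript reads were summed with an offset for the mean transcript length in each library, the log2 fold changes were -0.09 (adjusted p = 0.517) for Mrps26 and -0.18 (adjusted p = 0.218) for Mrps18c, and neither was called. Mrps5 was also not called in that fit (adjusted p = 0.073).

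The transcripts show what differs between these fits. The longest Mrps26 transcript, the protein-coding ENSMUST00000145614 of 4278 bases, had 74.0, 84.9 and 83.7 CPM in control and 35.7, 51.6 and 46.0 in palmitate, a ratio of 0.549 without overlap. The shorter ENSMUST00000046149 of 1057 bases, annotated as a retained intron in GENCODE M21, had 21.4, 16.7 and 16.7 CPM in control and 27.9, 21.1 and 27.7 in palmitate, a ratio of 1.40 with groups that overlapped. The longer transcript took 77.6%, 83.6% and 83.4% of the gene's reads in control and 56.1%, 71.0% and 62.5% in palmitate. Because a long transcript gives more reads per molecule, Mrps26 stood at 48.0 ± 1.85 TPM in control and 46.9 ± 4.26 in palmitate (SD, n = 3), which is within the spread of the libraries.

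In Mrps18c the protein-coding ENSMUST00000016977 of 638 bases had 41.2, 34.7 and 39.9 CPM in control and 18.7, 22.5 and 21.8 in palmitate, a ratio of 0.544 without overlap. ENSMUST00000198453, annotated as subject to nonsense-mediated decay, had 23.8 ± 1.08 CPM in control and 25.5 ± 3.36 in palmitate, with overlap. The matrix held 66.1% of the Mrps18c transcript reads, and those of ENSMUST00000198453 were not in it. In the transcript tables the first of these took 52.9%, 45.2% and 49.8% of the gene's reads in control and 31.7%, 34.6% and 31.8% in palmitate, and the second at most 31.3% in any control library and at least 36.2% in any palmitate library. No test was run on single transcripts, whose reads Salmon assigns by estimate. Mrps24, whose call held with length offsets, showed such a shift too. Its ENSMUST00000020770, annotated as a retained intron, had a ratio of 0.726 without overlap. The protein-coding ENSMUST00000154330 had a ratio of 1.08 with overlap. It took 21.8% to 27.4% of the gene's reads in control and 28.8% to 38.8% in palmitate. In Mrpl1, by contrast, both main transcripts were lower without overlap, at ratios of 0.608 (ENSMUST00000117766) and 0.684 (ENSMUST00000121477).

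**Figure D3:**
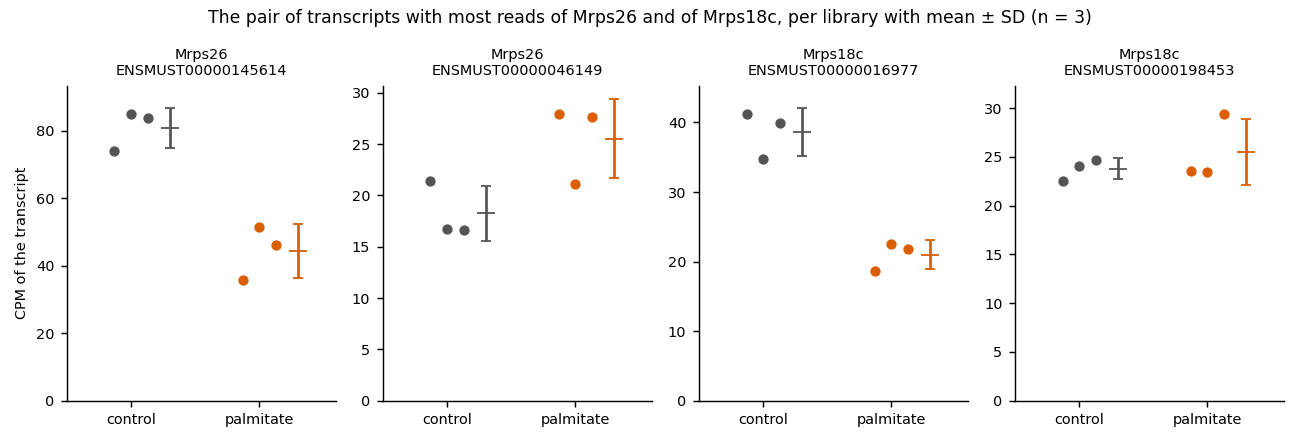
CPM of the pair of transcripts with the most reads in Mrps26 and in Mrps18c, from the transcript tables. Points are the 3 control and 3 palmitate libraries, with bars for the mean ± SD. The protein-coding ENSMUST00000145614 and ENSMUST00000016977 are lower in palmitate without overlap, and the groups of the other pair overlap.

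For 11 members the matrix held under 90% of the reads that the transcript tables gave them, and for 6 of these at most 51.5%. Among the 66 tested members with at least 90%, 24 fell (36.4%) and 2 rose (3.0%), with a median of -0.19. Among the 11, 2 fell (18.2%, Mrpl35 and Mrps18c) and 1 rose (9.1%, Mrpl23). The shares over all genes tested were 11.7% and 11.1%. Mrpl42 is the extreme, with 0.946% of its reads in the matrix. Its matrix counts were 17, 19 and 0 in control and 31, 72 and 0 in palmitate, so its matrix fold change (1.65, adjusted p = 0.416) rests on nearly none of its reads. That value still counts among the 77 tested members, as 1 of those not called. Summed over transcripts, Mrpl42 had 96.6, 92.3 and 95.9 CPM in control and 78.4, 90.7 and 78.9 in palmitate, without overlap (log2 fold change -0.20, adjusted p = 0.0869). Mrpl33, absent from the matrix, had 132.7, 121.5 and 142.3 CPM in control and 118.7, 125.4 and 116.6 in palmitate (-0.14, adjusted p = 0.22), with overlap. Neither passed the test. Summing transcripts lost none of the 29 calls, and it added Mrpl9, Mrpl18, Mrpl32 and Mrps27.

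Mrpl32 is processed by a mitochondrial protease before it joins the large subunit. The matrix held 46.0% of its reads. Its adjusted p was 0.0551 in the matrix and 0.0197 with the replicate block, and in the fit with length offsets it fell by 0.42 on the log2 scale (adjusted p = 0.0249). Mrps11 was called with length offsets only (-0.40, adjusted p = 0.0307). Other genes just beyond the threshold were Mrpl18 (adjusted p = 0.0503) and Mrpl9 (0.0574), which were called with the replicate block (0.0111 and 0.0353). The block also added Mrpl53 (0.0392) and Mrps6 (0.038) among the lower genes, and Mrpl42 as the higher one (0.029), the last from the matrix counts that hold nearly none of its reads.

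Some members overlap other genes in the annotation. Of the 77 tested, 22 share exonic bases with another gene that had reads, and 7 of these fell (31.8%) and 2 rose (9.1%). Of the 55 that share none with a gene that had reads, 19 fell (34.5%) and 1 rose (1.8%). The shares over all genes tested were 11.7% and 11.1%. Mrpl46 and Mrps11 share 173 bases on opposite strands, Mrpl19 shares 1962 bases with Gcfc2, and Mrpl43 shares 507 with Twnk. Mrpl47 shares 616 bases with Ndufb5 and 452 with Actl6a on the opposite strand, and Mrps24 shares 226 with Urgcp on the same strand. How far reads of these neighbours enter the falls was not tested.

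Levels per length differed widely between members. In the order by mean TPM over the 6 libraries, the large subunit was led by Mrpl33 (508.1 TPM), Mrpl20 (248.3) and Mrpl42 (208.5) and ended with Mrpl4 (25.2), Mrpl14 (20.9) and Mrpl23 (14.9). The small subunit was led by Mrps18c (281.8 TPM), Mrps21 (189.6) and Mrps33 (188.5) and ended with Mrps11 (28.9), Mrps27 (26.8) and Mrps2 (21.2). The lead of Mrpl33 was larger than the spread of the libraries, with 525.1 ± 33.8 TPM in control and 491.0 ± 15.2 in palmitate, while Mrps21 and Mrps33 were too close to be ordered. Most of these proteins are present in a single copy per ribosome. The median gene of the large subunit stood at 69.1 TPM in control and 59.7 in palmitate, and that of the small subunit at 83.5 and 71.5. Mrpl20 went from 275.2 ± 3.88 to 221.3 ± 6.85 TPM and Mrpl23 from 11.5 ± 1.14 to 18.2 ± 0.234. Of the lowest genes named here only Mrpl23 was called, and its counts may not be separable from those of its pseudogene.

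**Figure D4:**
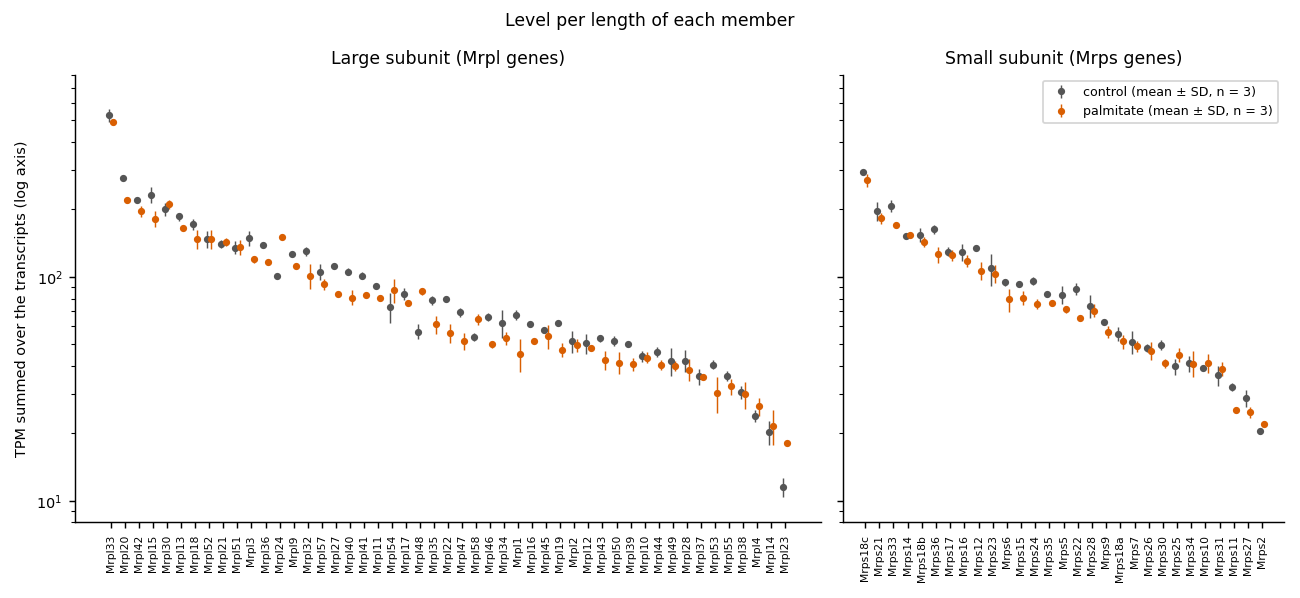
TPM summed over the transcripts of each member (log axis), ordered by the mean over all libraries, for the large subunit (left) and the small subunit (right). Points are group means of control and palmitate with bars of 1 SD (n = 3). Mrpl33 stands highest and Mrpl23 lowest, and in most genes the palmitate point lies below the control point.

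Promoter sequences were compared because the members move largely one way. RefSeq windows from 250 bases before to 50 after the start (build GRCm38.p6) were found for 69 of the 78 members. Searched on both strands, CCGGAAG, the core bound by ETS factors such as the nuclear respiratory factor GABP, stood in 26 (37.7%) of them, against 9.9% of the 27025 genes with windows. The NRF1 motif, GCGCA and GCGC with any base between, stood in 13 (18.8%, against 5.2%), and the YY1 motif, AAGATGG followed by CGGC, in 5 (7.2%, against 0.8%). The E-box CACGTG (7.2% against 8.1%) and CCAAT (39.1% against 41.1%) were about as frequent as elsewhere. No motif searched contains another. By subunit, CCGGAAG stood in 34.9% of the large and 42.3% of the small subunit genes.

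The motifs were also counted by call. CCGGAAG stood in 9 of 24 members that fell (37.5%), in 15 of 41 that did not pass (36.6%) and in 1 of 3 that rose. The NRF1 motif stood in 2 of 24 that fell (8.3%) and in 11 of 41 that did not pass (26.8%). These shares are descriptions and were not tested. The sequences below are the 150 bases before the start of 3 members that fell and 1 that rose, and each holds the ETS letters, in capitals, on the strand shown or as CTTCCGG, the same letters on the other strand. They lie at chr11:94653641-94653790 (Mrpl27, plus strand), chr11:58171514-58171663 (Mrpl22, plus strand), chr9:98601680-98601829 (Mrps22, minus strand) and chr7:100583131-100583280 (Mrpl48, minus strand, 1 of its 4 annotated windows), from RefSeq on GRCm38.p6.
Mrpl27: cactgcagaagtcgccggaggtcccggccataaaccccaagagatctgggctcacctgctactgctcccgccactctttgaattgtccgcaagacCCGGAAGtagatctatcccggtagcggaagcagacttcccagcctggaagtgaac
Mrpl22: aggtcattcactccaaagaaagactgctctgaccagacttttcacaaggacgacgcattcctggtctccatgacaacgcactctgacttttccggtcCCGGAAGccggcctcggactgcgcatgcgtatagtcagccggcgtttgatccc
Mrps22: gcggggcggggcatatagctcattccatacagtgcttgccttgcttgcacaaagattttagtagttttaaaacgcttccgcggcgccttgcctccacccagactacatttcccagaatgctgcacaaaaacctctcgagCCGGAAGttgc
Mrpl48: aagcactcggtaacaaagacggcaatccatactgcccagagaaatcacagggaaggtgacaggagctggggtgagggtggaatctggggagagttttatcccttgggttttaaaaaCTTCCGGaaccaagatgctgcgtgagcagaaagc
In Mrpl27 and Mrpl22 the letters stand in the second part of the stretch, and in Mrps22 they end 4 bases before the start. Mrpl48, which rose, holds them as well, in the reverse orientation, but only in the window shown. That window is the furthest downstream of its 4, and the others lack these letters.

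Proteins of the same ribosome that carry other names moved the same way in part. Of 5 such genes, 2 fell (40.0%, all genes 11.7%) and 0 rose (all genes 11.1%). The number that rose was also 0 at an unadjusted p under 0.05 and by DESeq2 and limma-voom. Ptcd3, a small subunit protein that binds RNA, had 231.1, 254.6 and 256.3 CPM in control and 169.7, 200.1 and 190.7 in palmitate, without overlap (log2 fold change -0.41, adjusted p = 0.0143). Chchd1, another small subunit protein, was at -0.35 (adjusted p = 0.043), and was not called with upper-quartile scaling (0.0692) or by limma-voom (0.0569). Dap3, a GTP-binding protein of the small subunit, did not pass, at 0.11, and neither did Aurkaip1, at -0.11, or Gadd45gip1.

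Among factors that build the mitochondrial ribosome, 4 of 25 tested fell (16.0%, all genes 11.7%) and 1 rose (4.0%, all genes 11.1%), with a median log2 fold change of -0.11. With the replicate block 6 fell (24.0%, all genes 16.6%) and 3 rose (12.0%, all genes 16.5%). The GTPase Mtg2, which acts late in assembly of the large subunit, had 53.1, 54.1 and 58.3 CPM in control and 30.9, 35.6 and 35.1 in palmitate. Its groups did not overlap (-0.70, adjusted p = 0.00367). Noa1, another GTPase of mitochondrial ribosome assembly, had 77.0, 89.1 and 83.1 CPM in control and 48.7, 58.3 and 52.1 in palmitate (-0.65, adjusted p = 0.00505), again without overlap. Fastkd2, which binds the large ribosomal RNA, was at -0.39 (adjusted p = 0.0087) and the GTPase Gtpbp10 at -0.44 (adjusted p = 0.0182). Nsun4, a methyltransferase for the small ribosomal RNA that also helps join the subunits, rose from 24.1, 23.8 and 22.2 CPM to 30.0, 32.8 and 31.1 (0.42, adjusted p = 0.0119). The helicase Dhx30 is listed at 0 in the matrix and was not tested there. With reads summed over transcripts all 26 genes of the list passed the filter, so this 0 does not give its level. In the 6 fits that left out 1 library each, Mtg2 and Noa1 kept their calls in 6, Ptcd3, Fastkd2 and Nsun4 in 5, and Chchd1 and Gtpbp10 in 1. Each call lost in this way was lost without control 3.

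Of 15 mitochondrial translation factors and related genes, 6 fell (40.0%, all genes 11.7%) and 0 rose (all genes 11.1%), with a median of -0.21. The number that rose was also 0 at an unadjusted p under 0.05 and by DESeq2 and limma-voom. The elongation and recycling factors Gfm1 (-0.35, adjusted p = 0.0197) and Gfm2 (-0.39, adjusted p = 0.00837) fell. So did Mtfmt (-0.43, adjusted p = 0.0112), which formylates the initiator tRNA, and Slirp (-0.44, adjusted p = 0.0183), which stabilises mitochondrial mRNAs. The remaining 2 were Guf1 and Mtrf1. Gfm2 and Mtfmt kept their calls in 6 of the fits that left out 1 library, Slirp in 4 and Gfm1 in 2, both being lost without control 2 and without control 3.

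The mRNAs that this ribosome translates, 13 genes of mitochondrial DNA, gave 0 calls in either direction by edgeR, with a median of -0.11. Over all genes, 11.7% were called lower and 11.1% higher. At an unadjusted p under 0.05, 0 were higher and 2 lower. DESeq2 and the fit with the replicate block each called 2 lower (15.4%, all genes 14.5% and 16.6%). By limma-voom 0 were lower (all genes 11.1%). The mitochondrial ribosomal RNAs were not analysed here. Of 12 tested regulators of nuclear genes for mitochondria, 2 fell (16.7%, all genes 11.7%) and 0 rose (all genes 11.1%). The number that rose was also 0 at an unadjusted p under 0.05 and by DESeq2 and limma-voom. Tfam, which packages and transcribes mitochondrial DNA, had 135.9, 158.0 and 155.9 CPM in control and 105.1, 115.5 and 115.6 in palmitate, without overlap (-0.42, adjusted p = 0.0115), a call lost without control 3. Gabpa, the DNA-binding subunit of GABP, was at -0.36 (adjusted p = 0.0286), and its call held in 1 of the 6 fits that left out 1 library. Myc (-0.01), Nrf1 (0.11), Yy1 (-0.14) and Esrra (0.13) did not pass.

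Cytosolic ribosomal proteins had values of the other sign. Of 72 tested, 4 rose and 1 fell, with a median log2 fold change of 0.14, and 64 had a positive value. The 4 that rose are 5.6% of the list, against 11.1% of all genes. The number that rose was 11 (15.3%, all genes 16.5%) with the replicate block, 8 with upper-quartile scaling and by DESeq2 (11.1%, all genes 13.7% and 12.0%), 4 by limma-voom, 3 with transcript sums and 2 with length offsets. In each of these settings the share was below that of all genes. Rps29 (0.50) had the largest value of those that rose, with Rps27, Rpl32 and Rps9; the calls of Rpl32 and Rps9 were lost with transcript sums (adjusted p = 0.0535 and 0.0519). Rpl13a was called lower in the matrix (-0.41), which held 17.8% of its transcript reads, and stood at 0.09 (adjusted p = 0.417) when all were summed. Nuclear genes for subunits of oxidative phosphorylation, the complexes that the mitochondrial ribosome helps to supply, had 8 lower (10.4%) and 5 higher (6.5%) of 77 tested, against 11.7% and 11.1% of all genes, and a median of -0.02, which was 0.03 with upper-quartile scaling. No test of the difference between these lists was made. In TPM, mitochondrial ribosomal proteins made up 0.775%, 0.750% and 0.780% of the total in control 1 to 3 and 0.683%, 0.703% and 0.690% in palmitate 1 to 3.

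**Figure D5:**
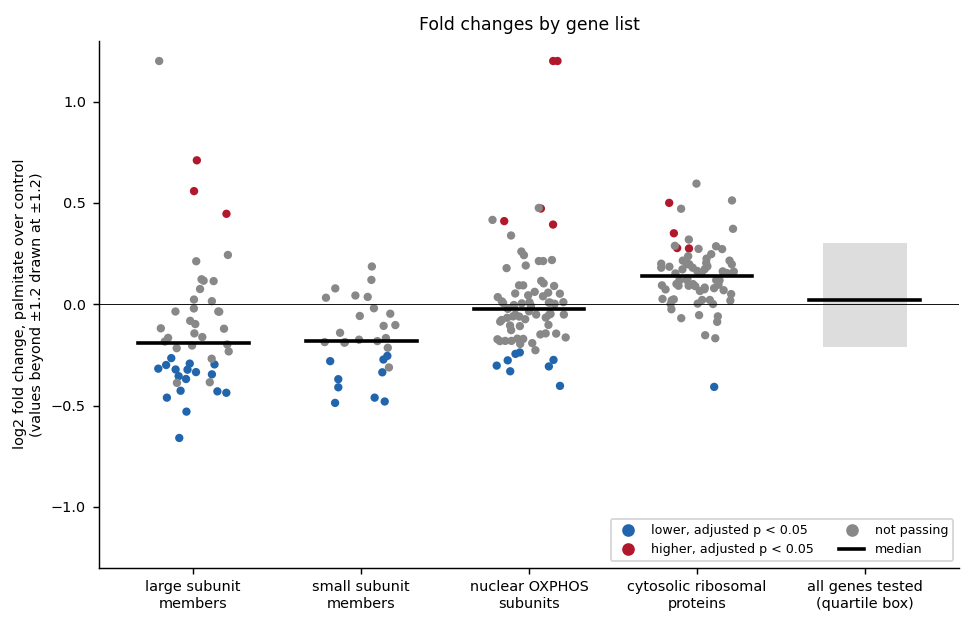
Log2 fold changes (palmitate over control, edgeR) of single genes in mitochondrial ribosomal proteins of the large and small subunit and in the comparison lists. Each point is 1 gene, coloured where it was called, the bar is the list's median, the grey box spans the quartiles of all genes tested, and values beyond 1.2 (Mrpl42, Cox6a2, Cox6b2) are drawn at 1.2. The median lies at -0.19 and -0.18 for the subunits, at 0.14 for cytosolic ribosomal proteins and at -0.02 for oxidative phosphorylation subunits.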

How the data were processed

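The 6 libraries were of total RNA, prepared with a SMARTER mRNA-Seq kit per the labels' protocols. Tools named in the submitters' processing notes are Salmon 1.10.0, Trim Galore 0.6.10 and DESeq 1.42.0, with the build GRCm39; no strand setting is stated. What the authors deposited is a gene matrix of estimated counts (expected counts rounded to whole numbers) and, per library, Salmon transcript tables with expected counts that need not be whole, TPM and the effective length of each transcript. From the transcript tables, 114857 of 116224 transcripts (98.82%) were matched to genes of GENCODE M21, an earlier build, so coordinates are printed only for RefSeq promoter windows on GRCm38.p6. The gene matrix lacks part of some genes' transcript reads. No column was left unused (0), and 0 entries named no gene.

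Matrix counts went into edgeR 4.0.16 (R 4.3.3): TMM scaling, edgeR's low-count filter (12068 genes left), a robust quasi-likelihood fit with the group as single term, and the two-sided test with Benjamini-Hochberg adjustment over all genes at 0.05. CPM values are on TMM-scaled library sizes, and mean ± SD is over 3 libraries; log2 fold changes carry their SE. TPM was summed over a gene's transcripts. The alternatives were DESeq2 1.42.0, limma-voom (limma 3.58.1), other scalings and filters, transcript sums (rounded) with and without length offsets, a replicate block and leaving out each library. The fit was tested on simulated data. Libraries with the same replicate number deviated together, with correlations of 0.226, 0.13 and 0.152 between same-numbered pairs, so the numbers, taken from the titles, may pair the libraries. The calls and p-values in the text come from the fit without the block unless the block is named.

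The members and lists were chosen with earlier results of these data known. Named with values were each member that rose, the 10 large and 6 small subunit members that fell with the smallest adjusted p, the 3 highest and 3 lowest by TPM per subunit, and up to 4 genes of each other list. Members outside this rule (Mrpl9, Mrpl18, Mrpl32, Mrpl53, Mrps6, Mrps11 and those that fell with a larger p) were named after their values were seen.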

Additional observations from a re-analysis of the deposited data

How the results depend on the processing

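The median over the members was negative in every setting run, and none of the 29 called members changed sign. Leaving out 1 library at a time gave 5 to 26 members lower, 2 to 4 higher, 3 to 17 large and 2 to 9 small subunit members lower, and a median log2 fold change of -0.222 to -0.164. The low counts came without control 2 (12 lower), control 3 (5), palmitate 1 (10) and palmitate 3 (10), and the number of genes called over the whole table dropped there too; it rose without control 1, which left 26 members lower. The cause was not tested. Of the 29 calls, 7 held in all 6 of these fits, 4 in 5, 2 in 4, 2 in 3, 8 in 2 and 6 in 1. Under the other settings 18 to 31 members were lower and 3 to 4 higher. With upper-quartile scaling, 5 small subunit members were lower and the median was -0.125; the cause was not tested beyond a shift of 0.058 in the all-gene median. With the replicate block, 31 members were lower and 4 higher, 21 large and 10 small subunit members were lower, and the median was -0.185. The block called 3993 genes over the whole table, against 2759 without it, and changed no other call among the members than those named in the text. The length offsets ended the calls of Mrps26 (adjusted p = 0.517), Mrps18c (0.218) and Mrps5 (0.073). Values of Mrpl23, Mrpl57 and Mrpl42 rest on few matrix counts, and Mrpl33 has none.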
